A study of Mus musculus with 12 samples.

Results

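Melanopsin, encoded by Opn4, is the light-sensing protein of the intrinsically photosensitive retinal ganglion cells (ipRGCs), whose subtypes the series set out to study. The genes described here are 9 components of its signalling route, chosen by name from 19954 listed genes: the receptor Opn4, the G protein alpha subunits Gnaq, Gna11 and Gna14, the phospholipase Plcb4, the channels Trpc6 and Trpc7, the neuropeptide precursor Adcyap1 and the Ras activator Rasgrp1. RNA was measured in pools of 12 C57BL/6 mouse retinas at embryonic stage E15.5, with 3 pools of mutant males, 3 of mutant females, 3 of wildtype males and 3 of wildtype females. Mutants were Six3-Cre:Tbr2f/f, in which a Six3-driven Cre recombinase, active in the developing eye field, acts on floxed alleles of Tbr2 (listed as Eomes), a T-box transcription factor gene. The labels call the wildtype retinas wild type and name no Cre or floxed allele for them, and nothing in the labels ties a pool to particular litters. The p-values therefore measure the spread between pools, and fewer cells of a type cannot be told apart from less RNA per cell.

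In mature ipRGCs light-activated melanopsin couples to G proteins of the Gq class, which activate phospholipase C beta-4, and channels containing TRPC6 and TRPC7 then open and depolarise the cell. The axons of these cells carry signals for circadian entrainment and the pupil reflex, and release the peptide PACAP, made from Adcyap1, together with glutamate. RASGRP1, a guanine nucleotide exchange factor for Ras, marks a subset of mature ipRGCs in mice. At the embryonic stage measured here eye opening and vision are still to come.

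All 9 genes are protein coding, and their coordinates are those of the files, in mm10. Opn4 lies on chromosome 14 from 34590618 to 34600142 on the minus strand. Gnaq (chromosome 19, 16132831 to 16387463) and Gna14 (chromosome 19, 16435667 to 16610818) lie beside each other on the plus strand, and Gna11 lies on chromosome 10 from 81528724 to 81545190 on the minus strand. Plcb4 lies on chromosome 2 from 135659011 to 136014593 on the plus strand. Trpc6 lies on chromosome 9 from 8544196 to 8680565 on the plus strand, and Trpc7 on chromosome 13 from 56773113 to 56895789 on the minus strand. Adcyap1 lies on chromosome 17 from 93199422 to 93205485 on the plus strand, and Rasgrp1 on chromosome 2 from 117279993 to 117343001 on the minus strand. Within the listed genes only Gnaq was overlapped by others, 2 pseudogenes on the opposite strand with 1 to 33 counts per library, against 3388 counts or more for Gnaq.

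Promoter windows are shown for the receptor gene, the channel gene Trpc7 and the neuropeptide gene, because the targeted gene encodes a DNA-binding factor. Of the tested members these had the lowest estimates in mutants, and the windows of the other members are not shown. Each window runs from 250 bases before to 50 bases after a RefSeq start on GRCm38.p6, is written 5′ to 3′ on the gene's own strand, and marks in capitals any match to GGTGTG or its reverse complement CACACC, the inner 6 letters of the T-box site AGGTGTGA. Opn4 is at chr14:34600093-34600392 (minus strand), Trpc7 at chr13:56895740-56896039 (minus strand) and the first of 2 Adcyap1 windows at chr17:93198767-93199066 (plus strand).
Opn4: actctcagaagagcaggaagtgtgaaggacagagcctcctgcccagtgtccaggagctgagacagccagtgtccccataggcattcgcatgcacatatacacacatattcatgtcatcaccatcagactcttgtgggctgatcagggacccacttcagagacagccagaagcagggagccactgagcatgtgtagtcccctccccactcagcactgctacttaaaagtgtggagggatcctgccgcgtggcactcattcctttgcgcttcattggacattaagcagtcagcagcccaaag
Trpc7: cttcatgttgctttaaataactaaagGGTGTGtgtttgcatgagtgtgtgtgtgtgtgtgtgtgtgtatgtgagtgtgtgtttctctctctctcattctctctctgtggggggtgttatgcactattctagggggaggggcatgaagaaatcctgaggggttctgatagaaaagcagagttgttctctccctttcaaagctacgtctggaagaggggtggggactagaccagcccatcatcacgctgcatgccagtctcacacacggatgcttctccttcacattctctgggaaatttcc
Adcyap1: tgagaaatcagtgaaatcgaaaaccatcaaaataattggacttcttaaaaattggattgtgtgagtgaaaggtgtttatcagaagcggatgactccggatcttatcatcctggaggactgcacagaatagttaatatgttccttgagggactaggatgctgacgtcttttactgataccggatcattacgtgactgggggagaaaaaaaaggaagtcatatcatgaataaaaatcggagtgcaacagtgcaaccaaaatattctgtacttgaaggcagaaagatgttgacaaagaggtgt

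All 9 genes matched the RefSeq table by symbol, with 11 windows in all. The 8-letter site AGGTGTGA, searched on both strands, was found in 0 of these 11 windows and in 1.28% of the 32851 windows of the table. The shorter GGTGTG, which is contained in it, was found in 2 of the 11, those of Trpc7, starting 224 bases before the start, and of Gna14, starting 229 bases before it, and in 19.0% of all windows. The window of Opn4 holds neither string. These are matches of letters in a short window and were not measured as binding.

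Total counts ran from 18514607 to 23401692 in the mutant libraries and from 19237301 to 27072825 in the wildtype libraries. Eomes was at 9.62 to 27.4 CPM (counts scaled by the library total) in mutants and 53.4 to 76.1 CPM in wildtype retinas, lower in 6 of 6 mutant libraries than in any wildtype library (a log2 difference of -1.76 with an SE of 0.15, edgeR adjusted p = 0.000484). Counts cover the whole gene, including exons outside the deleted part. Mutant male 6 had the fewest detected genes, 16903, and mutant female 4 the most, 19242. The mitochondrial transcript mt-Nd6 was above 100 CPM in 5 libraries (2 mutant, 3 wildtype), called mt-Nd6-rich here, and below it in the 7 mt-Nd6-poor ones (4 mutant, 3 wildtype), so values within each set are given beside the main ones. Among 21 ganglion cell genes, 0 were past the threshold and the summed level was 5266 to 6081 CPM in mutants and 5304 to 5561 CPM in wildtype retinas. The summed level of 19 lens genes was 6.75 to 2207 CPM in mutants and 11.5 to 917 CPM in wildtype retinas. All 17 lens genes that could be tested had a higher estimate in mutants, with a median log2 difference of 1.48, and 0 were called; the part of lens tissue in the results below was not tested.

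Levels of different genes were compared as FPKM, the deposited counts scaled by gene length and library total. In wildtype retina Gnaq and Gna11 were the highest of the members, and the receptor, Gna14, the channels and Rasgrp1 stood at the low end. These are levels over all cells of the retina pools, and levels within ipRGCs were not measured. Gnaq was at 38.8 ± 1.61 FPKM and Gna11 at 31.3 ± 1.43 FPKM (SD, n = 6), above 90.4% and 87.6% of the listed genes. Adcyap1 followed at 8.04 ± 0.780 FPKM and Plcb4 at 6.37 ± 0.394 FPKM, against a median of 3.85 FPKM over all listed genes. Opn4 was at 0.712 ± 0.119 FPKM, Gna14 at 0.573 ± 0.230, Trpc6 at 0.342 ± 0.129, Trpc7 at 0.297 ± 0.170 and Rasgrp1 at 0.0549 ± 0.0383 FPKM. Opn4 thus exceeded 33.8% of the listed genes and Rasgrp1 11% of them. The upper 4 places of this order held in 6 of 6 wildtype libraries, as did the step between Plcb4 and Opn4. Opn4 was above Gna14 in 5 of 6 libraries, Gna14 above Trpc6 and Trpc6 above Trpc7 in 4 of 6, and Trpc7 above Rasgrp1 in 5 of 6. The ranges of these neighbours overlapped. Among the upper places the ranges of Adcyap1 and Plcb4 overlapped narrowly, with a lowest Adcyap1 of 7.056 FPKM and a highest Plcb4 of 7.060 FPKM. By an exact two-sided paired permutation test the 4 steps that held in every library had p = 0.03, the smallest that 6 pairs can give. After adjustment over the 8 neighbouring pairs this was 0.0625. With only 4 steps at the smallest p, none could pass 0.05 after adjustment, however large the step. The order was also taken from these same libraries, so the test adds nothing to it and the values are a description.

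**Figure D1:**
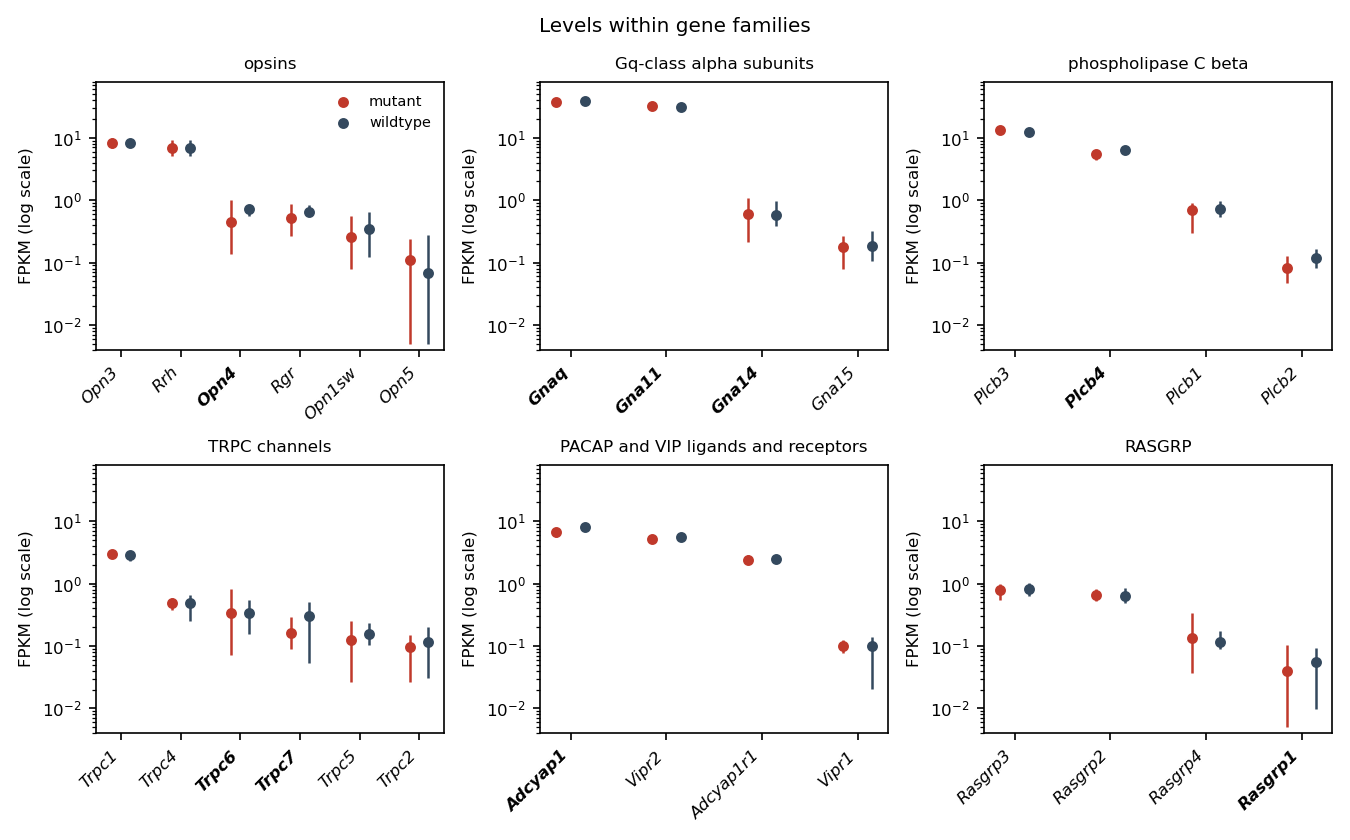
FPKM on a log axis for genes of 6 families, with mutant retinas in red left of wildtype retinas in blue. Points are means of 6 pools, lines run from the lowest to the highest pool (drawn down to 0.005 where a pool was at 0), and genes in bold are the members described here. Gnaq and Gna11 lie near 40 and 30 FPKM in both genotypes, while Opn4, Gna14, Trpc6, Trpc7 and Rasgrp1 lie below 1 FPKM on average.

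Within their families the members took very different places, again over all cells of the retina pools. Opn4 made up 2.69% of the summed mean FPKM of 6 opsin genes in mutants and 4.27% in wildtype retinas. The non-visual opsin Opn3 held 50.5% of this sum in mutants and 48.8% in wildtype retinas, and Rrh, which encodes peropsin, held 41.5% in mutants and 40.5% in wildtype retinas. Gnaq and Gna11 together dominated the Gq class, at 52.9% and 46.1% of its sum in mutants and 54.7% and 44.2% in wildtype retinas, and Gna14 stood at 0.827% in mutants and 0.808% in wildtype retinas. Plcb4 came second among the phospholipase C beta genes, at 28.6% of the sum in mutants and 32.6% in wildtype retinas, behind Plcb3 at 67.5% in mutants and 63.1% in wildtype retinas. Among 6 TRPC channel genes Trpc1 came first, at 71.3% of their sum in mutants and 67.1% in wildtype retinas. Trpc6 made up 8.16% of this sum in mutants and 8.09% in wildtype retinas, and Trpc7 3.88% in mutants and 7.02% in wildtype retinas. Rasgrp1 was the lowest of 4 RASGRP genes, at 2.45% in mutants and 3.37% in wildtype retinas, with Rasgrp3 and Rasgrp2 above it.

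The main comparison asked whether levels of these genes differed in the Tbr2 mutant. No member passed the threshold. The estimates were below 0 for 6 of the 8 members that could be tested and above 0 for 2, and the lowest were those of Trpc7, Opn4, Adcyap1 and Plcb4. By edgeR's quasi-likelihood test with sex as a term and Benjamini-Hochberg adjustment over all genes, 0 of 8 tested members were called. Over all genes the test called 4 of 15467 (0.0259%), all lower. DESeq2 and limma voom also called 0 members. At an unadjusted p under 0.05, 3 members were lower (Adcyap1, Plcb4 and Trpc7) and 0 higher, where 1.5% of all genes were lower and 1.42% higher at that level. The median log2 fold change of the 8 tested members was -0.12, against -0.01 over all genes, of which 52.7% were lower. Mutant and wildtype pools were free of overlap within each sex for 0 members, where 0.239% of all genes were lower in that way and 0.155% higher. Rasgrp1 had too few counts for the test.

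**Figure D2:**
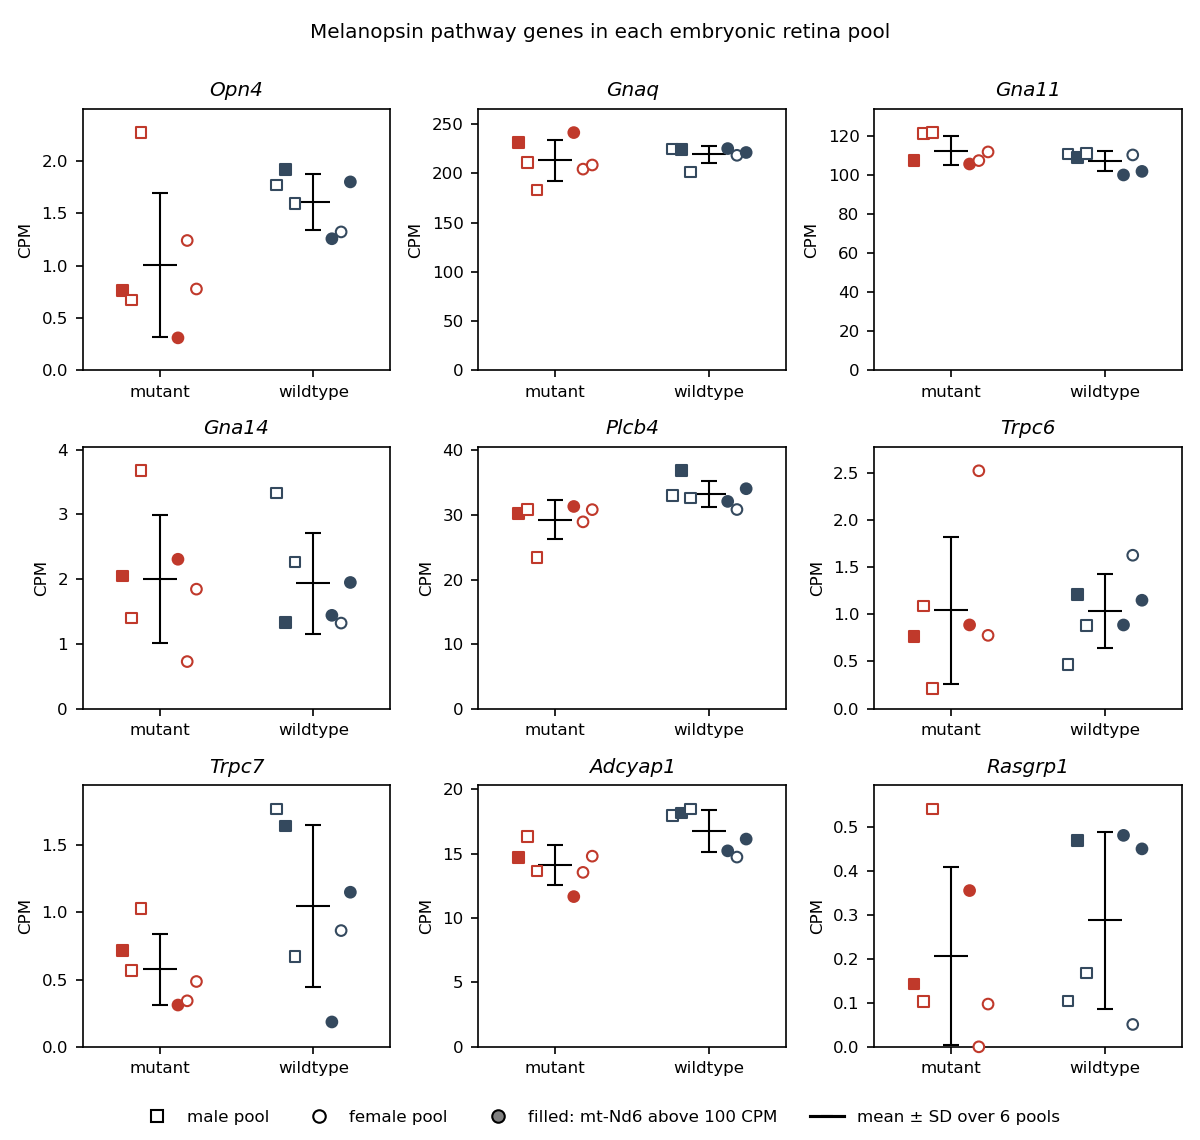
CPM of each of the 9 genes in every pool, mutants left of wildtype retinas, with the mean and SD over 6 pools beside the points. Squares are male pools, circles female pools, and filled symbols are libraries with mt-Nd6 above 100 CPM. For Opn4 and Plcb4 5 of the 6 mutant pools lie below every wildtype pool, and for Adcyap1 4 of the 6 do. At least 5 of 6 lay so for 115 of all genes tested (0.744%), by a count chosen after the values were seen. For Plcb4 some of these pools all but touch the lowest wildtype pool. The mutant and wildtype points of the other genes are more mixed.

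Opn4, the photopigment gene, had 0.762, 0.673 and 2.27 CPM in mutant males 4, 5 and 6, and 1.77, 1.91 and 1.60 CPM in wildtype males 4, 5 and 6. It had 0.310, 1.24 and 0.777 CPM in mutant females 4, 5 and 6, and 1.26, 1.32 and 1.80 CPM in wildtype females 4, 5 and 6. The 5 mutant pools other than mutant male 6 were below all wildtype pools, and mutant male 6 was above all of them. The margin was within counting error for mutant female 5, at 1.24 CPM, against 1.26 CPM in wildtype female 4. By this count, chosen after the values were seen, 115 of all genes tested (0.744%) had at least 5 of 6 mutant pools below every wildtype pool, and 85 (0.55%) had at least 5 above. The mean was 1.01 ± 0.686 CPM in mutants and 1.61 ± 0.269 CPM in wildtype retinas (SD, n = 6 each), a log2 difference of -0.71 (SE 0.35, edgeR unadjusted p = 0.0604, adjusted p = 0.918). The 95% interval of the fold ran from 0.365 to 1.03, which takes in both a marked loss and no difference. Without mutant male 6 the log2 difference was -1.07 (edgeR unadjusted p = 0.00324), and without mutant female 4 it was -0.53, with an edgeR adjusted p over 0.05 both times. Among mt-Nd6-rich libraries it was -1.76, and among mt-Nd6-poor ones, which include mutant male 6, it was -0.25.

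The mutant pools also differed more among themselves in Opn4 than the wildtype pools did. This was not particular to Opn4. The coefficient of variation was higher in mutants for every member but Trpc7 (46.4% in mutants, 57.4% in wildtype pools). The share over all genes was not counted. For Opn4 the coefficient was 68.3% over the mutants, where counting alone would give 22.1%. Over the wildtype pools it was 16.7%, where counting would give 16.6%. Opn4 rested on 7 counts in mutant female 4, whose exact Poisson 95% interval of 0.125 to 0.640 CPM lies below every wildtype value, and on 42 counts in mutant male 6, with an interval of 1.63 to 3.07 CPM. These intervals cover counting error only. The same libraries marked the ends for other measures. Mutant male 6 had the highest Eomes (27.4 CPM), the highest ganglion cell sum (6081 CPM) and the fewest detected genes among the mutants. It also had the highest progenitor sum (6258 CPM), the highest microglia sum (73.7 CPM) and the lowest horizontal cell sum (129 CPM). Among the mutants it was the lowest for amacrine (867 CPM) and lens genes (6.75 CPM) and the highest for blood genes (574 CPM). It was at neither end of the mutants for photoreceptor precursor, pigment epithelium or vessel and mesenchyme genes. Mutant female 4 had the lowest Eomes (9.62 CPM), the lowest ganglion cell sum (5266 CPM) and the most detected genes. It also had the highest horizontal cell sum (252 CPM). Among the mutants it was the lowest for photoreceptor precursor (466 CPM), microglia (53.1 CPM) and blood genes (294 CPM). With libraries scaled by the ganglion cell genes instead of TMM the log2 difference of Opn4 was -0.76 (edgeR unadjusted p = 0.0370), and over all 24 alternatives the adjusted p of Opn4 was 0.468 or more. The part of RNA quality in this spread was not tested.

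The alpha subunits that couple the receptor to phospholipase C were close to level between the genotypes. Gnaq ran from 183 to 241 CPM, with a median of 210, in mutants, and from 201 to 225 CPM, with a median of 223, in wildtype retinas. Gna11 ran from 106 to 122 CPM, with a median of 109, in mutants, and from 99.9 to 111 CPM, with a median of 109, in wildtype retinas. The groups overlapped for both genes, with 3 mutant pools above every wildtype pool for Gna11 and 2 above and 1 below for Gnaq. The log2 difference of Gnaq was -0.04 (SE 0.07, edgeR adjusted p = 0.926) and that of Gna11 0.06 (SE 0.05, edgeR adjusted p = 0.918). For these abundant genes the 95% intervals are narrow, 0.870 to 1.08-fold for Gnaq and 0.975 to 1.12-fold for Gna11. Among mt-Nd6-rich and mt-Nd6-poor libraries Gnaq was at 0.09 and -0.09, with the sign turned, and Gna11 at 0.03 and 0.09. Gna14, at 0.726 to 3.67 CPM in mutants and 1.32 to 3.33 CPM in wildtype retinas, had a log2 difference of 0.05 (SE 0.32, edgeR adjusted p = 0.980) and an interval from 0.641 to 1.66-fold. Its estimate was -0.16 without mutant male 6, 0.21 without wildtype male 4, 0.53 among mt-Nd6-rich libraries and -0.10 among mt-Nd6-poor ones.

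Plcb4, the phospholipase that acts after the alpha subunits, had 30.2, 30.8 and 23.4 CPM in mutant males 4, 5 and 6, and 33.1, 36.8 and 32.6 CPM in wildtype males 4, 5 and 6. It had 31.3, 28.9 and 30.8 CPM in mutant females 4, 5 and 6, and 32.1, 30.8 and 34.1 CPM in wildtype females 4, 5 and 6. All 3 mutant males were below all 3 wildtype males, and in females the groups overlapped. Over the 6 pools of each genotype, 5 mutants were below every wildtype pool, where 0.744% of all genes had at least 5 so placed. But 2 of these, at 30.8 CPM, matched the lowest wildtype pool, also 30.8 CPM, at this precision. The log2 difference was -0.19 (SE 0.08, edgeR unadjusted p = 0.0354, adjusted p = 0.918), or 0.876-fold with a 95% interval from 0.775 to 0.989. Without mutant male 6 it was -0.13, and the unadjusted p stayed under 0.05 in 6 of the 12 fits that left out 1 library. Among mt-Nd6-rich and mt-Nd6-poor libraries it was -0.17 in each set. The related Plcb3 was at 0.10 (SE 0.05, edgeR adjusted p = 0.918) and Plcb2 at -0.53 (SE 0.31, edgeR adjusted p = 0.918).

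Of the channels that open at the end of the cascade, Trpc7 had 0.715, 0.569 and 1.03 CPM in mutant males 4, 5 and 6, and 1.77, 1.64 and 0.672 CPM in wildtype males 4, 5 and 6. It had 0.310, 0.342 and 0.485 CPM in mutant females 4, 5 and 6, and 0.185, 0.864 and 1.15 CPM in wildtype females 4, 5 and 6. The groups overlapped in both sexes: wildtype male 6 lay among the mutant males, and wildtype female 4, with 5 counts, was the lowest library of all. The mean was 0.575 ± 0.267 CPM in mutants and 1.05 ± 0.60 CPM in wildtype retinas (SD, n = 6 each), or 7 to 19 counts per mutant library and 5 to 42 per wildtype library. The log2 difference was -0.86 (SE 0.40, edgeR unadjusted p = 0.0486, adjusted p = 0.918), with an interval from 0.303 to 0.996-fold. It was -1.11 among mt-Nd6-rich libraries and -0.76 among mt-Nd6-poor ones. Leaving out 1 library moved it between -1.05, without wildtype female 4, and -0.67, without wildtype female 6, and the unadjusted p stayed under 0.05 in 3 of those 12 fits. With limma voom the unadjusted p was 0.176, and with the replicate block in edgeR 0.0813.

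Trpc6 went no single way. Its level was 0.216 to 2.52 CPM, with a median of 0.832, in mutants, and 0.468 to 1.63 CPM, with a median of 1.02, in wildtype retinas. Both ends of the whole range were mutant pools. The highest, mutant female 5 at 2.52 CPM, had the highest lens gene sum (2207 CPM over 19 genes), and the lowest, mutant male 6 at 0.216 CPM from 4 counts, had the lowest lens gene sum (6.75 CPM). Not every library between followed this order: mutant male 4 had 0.762 CPM of Trpc6 with a lens sum of 611 CPM, and wildtype female 6 had 1.15 CPM with a lens sum of 12.0 CPM. The log2 difference of Trpc6 was -0.04 (SE 0.40, edgeR adjusted p = 0.986), with an interval from 0.533 to 1.77-fold. Without the 3 libraries highest in the lens gene Cryaa it was -0.49, without mutant female 5 alone -0.43, and without mutant male 6 alone 0.16. It was -0.39 among mt-Nd6-rich libraries and -0.00129 among mt-Nd6-poor ones. Trpc1, the most abundant of these channel genes, was at 0.07 (SE 0.10, edgeR adjusted p = 0.918), and Trpc5 at -0.31 (SE 0.44, edgeR adjusted p = 0.919).

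Adcyap1, the PACAP precursor gene, had 14.7, 16.4 and 13.7 CPM in mutant males 4, 5 and 6, and 17.99, 18.17 and 18.47 CPM in wildtype males 4, 5 and 6. It had 11.7, 13.5 and 14.8 CPM in mutant females 4, 5 and 6, and 15.2, 14.7 and 16.1 CPM in wildtype females 4, 5 and 6. In males every mutant pool was below every wildtype pool, and in females mutant female 6 lay between wildtype females 5 and 4. The mean was 14.1 ± 1.57 CPM in mutants and 16.8 ± 1.63 CPM in wildtype retinas (SD, n = 6 each). The log2 difference was -0.25 (SE 0.08, edgeR unadjusted p = 0.00520, adjusted p = 0.918), or 0.839-fold with an interval from 0.748 to 0.939. It was the member with the smallest p, placed 45 among 15467 genes. In the 12 fits that left out 1 library the log2 difference stayed between -0.29 and -0.22, with an unadjusted p under 0.05 in all 12 and an adjusted p over 0.05 in all 12. It was -0.37 among mt-Nd6-rich libraries and -0.18 among mt-Nd6-poor ones.

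The genes that receive the PACAP signal were measured in the same tissue. The PACAP receptor gene Adcyap1r1 was at 2.35 ± 0.301 FPKM in mutants and 2.47 ± 0.254 FPKM in wildtype retinas, and Vipr2, a receptor gene for PACAP and the related peptide VIP, at 5.14 ± 0.632 FPKM in mutants and 5.53 ± 0.561 FPKM in wildtype retinas (SD, n = 6 each). Their log2 differences were -0.08 (SE 0.09, edgeR adjusted p = 0.918) and -0.11 (SE 0.09, edgeR adjusted p = 0.918).

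Rasgrp1 was near the detection limit. It had 3, 2 and 10 counts in mutant males 4, 5 and 6, and 2, 12 and 4 counts in wildtype males 4, 5 and 6. It had 8, 0 and 2 counts in mutant females 4, 5 and 6, and 13, 1 and 9 counts in wildtype females 4, 5 and 6. The groups overlapped in both sexes, and the counts varied beyond counting error, with a coefficient of variation of 97.5% over the mutants, where counting alone would give 49.0%, and of 69.8% over the wildtype pools, where counting would give 38.3%. With no filter on low counts the fitted log2 difference was -0.54 (SE 0.74, edgeR adjusted p = 0.939). It was -0.85 among mt-Nd6-rich libraries and 0.92 among mt-Nd6-poor ones, so its direction turned with the set. The related Rasgrp3 and Rasgrp2 were at -0.07 (SE 0.16, edgeR adjusted p = 0.941) and 0.04 (SE 0.16, edgeR adjusted p = 0.963).

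**Figure D3:**
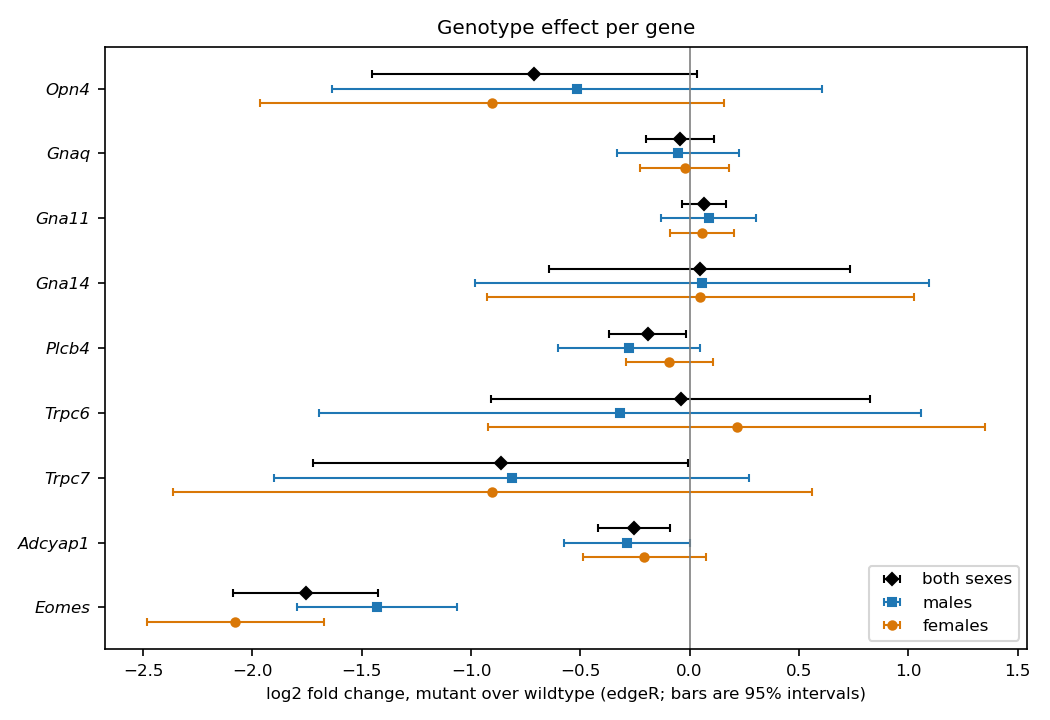
Log2 fold change of mutant over wildtype for 8 members and for Eomes, from edgeR fits of all pools, of male pools and of female pools, with 95% intervals as bars. The intervals of Eomes lie wholly below 0 in all 3 fits, those of Adcyap1, Plcb4 and Trpc7 lie below 0 in the fit of both sexes, and those of Gnaq and Gna11 are the narrowest of the members in the fit of both sexes and span 0.

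In males alone 0 of 8 tested members were called by edgeR, where 0 of 14945 genes (0%) were, and DESeq2 and limma voom called 0 members. At an unadjusted p under 0.05 there were 0 members, where 1.41% of all genes lay. Mutant and wildtype males did not overlap for Adcyap1 and Plcb4, both lower, where 2.9% of all genes were lower without overlap and 2.48% higher. Their log2 differences in males were -0.29 (SE 0.12) and -0.28 (SE 0.14), both with an edgeR adjusted p of 0.994. Opn4 was at -0.51 (SE 0.48) in males. In females alone 0 of 8 members were called by edgeR, where 1 of 14956 genes (0.00669%) was, and 2 genes with the replicate number as a block. The other tools, DESeq2 and voom, also called 0 members. At an unadjusted p under 0.05 there were again 0 members, against 2.63% of all genes. Mutant and wildtype females did not overlap for Opn4, which was lower, where 3.86% of all genes were lower without overlap and 4.23% higher. Its log2 difference in females was -0.90 (SE 0.46, edgeR adjusted p = 0.986).

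The interaction asked whether the genotype difference was unlike in females and males. For Opn4 the female log2 difference less the male one was -0.38 (SE 0.71, edgeR adjusted p = 1), with a 95% interval from -1.93 to 1.17 on the log2 scale. For Adcyap1 it was 0.09 (SE 0.16), for Plcb4 0.19 (SE 0.16) and for Trpc7 -0.09 (SE 0.79), each with an edgeR adjusted p of 1. The edgeR test called 0 members and 0 of 15467 genes (0%), with 0 members and 1.73% of genes at an unadjusted p under 0.05. Members called by DESeq2 or voom numbered 0. The intervals are wide for Opn4, Gna14, Trpc6 and Trpc7, so a sex difference of moderate size was not detectable in these genes. They were narrower for Gna11 (0.850 to 1.14-fold), Gnaq (0.817 to 1.29-fold), Adcyap1 (0.838 to 1.35-fold) and Plcb4 (0.895 to 1.46-fold).

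The authors' deposited table of both sexes gave Opn4 a log2 fold change of -0.15 with an adjusted p of 0.951. In the authors' deposited table Adcyap1 was at -0.20, Plcb4 at -0.15 and Trpc7 at -0.12, each with an adjusted p of 0.951, and Rasgrp1 at -0.03 without an adjusted p. For Opn4, Adcyap1, Plcb4 and Trpc7 the deposited values lie nearer to 0 than the edgeR estimates. The same held for Eomes, at -0.81 in the deposited table and -1.76 by edgeR. DESeq2 as run here, which did not pull fold changes towards 0, gave Opn4 a log2 difference of -0.71. The deposited sizes are therefore not directly comparable with those given here.

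Other genes of the pathway were described from lists chosen by function. Among 12 tested genes of the Gq class and its partners, 0 were called and 1 had an unadjusted p under 0.05. That gene was Rgs4, a regulator that shortens Gq and Gi signals, at -0.68 (SE 0.17, edgeR unadjusted p = 0.00115, adjusted p = 0.918). Gnb5 was at 0.12 (SE 0.08) and Rgs2 at -0.14 (SE 0.10), both with an edgeR adjusted p of 0.918. Among 18 tested genes of lipid second messengers and IP3 receptors, 0 were called, and Itpr1, encoding the calcium-releasing IP3 receptor, was at 0.16 (SE 0.07, edgeR unadjusted p = 0.0482, adjusted p = 0.918). Itpr3 was at 0.22 (SE 0.16) and Dgkb, a diacylglycerol kinase gene, at -0.31 (SE 0.23), both with an edgeR adjusted p of 0.918. Of 7 tested receptor kinase and arrestin genes 0 were called, with Grk6 at 0.10 (SE 0.06), Adrbk2 at 0.06 (SE 0.08) and Grk4 at 0.16 (SE 0.26). Of 10 tested genes of the rod and cone cascade, which uses transducin and a phosphodiesterase in place of Gq and phospholipase C, 0 were called. Pde6g was at -0.94 (SE 0.61), Guca1b at 0.40 (SE 0.28) and Cngb3 at -0.23 (SE 0.18), each with an edgeR adjusted p of 0.918. Of 5 tested opsin genes 0 were called, and next to Opn4 the lowest were Opn1sw, the short-wavelength cone opsin gene, at -0.44 (SE 0.55) and Rgr at -0.43 (SE 0.25), both with an edgeR adjusted p of 0.918.

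Of the 12 tested transcription factor and subtype genes of ipRGCs, only Eomes, the targeted gene, was called. At an unadjusted edgeR p under 0.05 there were 5, with 4 lower, Eomes among them, and 1 higher. Over all genes 1.5% were lower and 1.42% higher at that level. The list was drawn up with earlier results of these data known, so the count is a description. Irx1, a homeobox gene, was at -1.53 (SE 0.27, edgeR adjusted p = 0.148) and Lmo2, a LIM-only factor gene, at 0.54 (SE 0.09, edgeR adjusted p = 0.0849). The summed level of 13 such genes was 337 to 376 CPM in mutants and 396 to 490 CPM in wildtype retinas. Without Eomes the sum of the other 12 was 327 to 351 CPM in mutants and 342 to 414 CPM in wildtype retinas, and the groups overlapped.

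For Opn4 the most alike pattern over the 12 libraries, by Pearson's r of log2 CPM among 13701 genes with a mean of at least 1 CPM, was that of Cacng3, a gene of AMPA receptor auxiliary subunits, with r = 0.92. Gpr176, an orphan receptor gene, was at r = 0.89, and between them came an entry whose symbol the table holds in the form of a date. For Adcyap1 the most alike were Rab33a (r = 0.89), Tppp (r = 0.88) and Sh3gl2 (r = 0.88). For Trpc7 they were Ccdc60 (r = 0.85), Il4i1 (r = 0.80) and BC068281 (r = 0.80). For Plcb4 they were Gpr137c, Ndufb2 and Pde3a (r = 0.93 each), and for Gnaq H3f3a-ps1, Pvrl3 and Bche (r = 0.963 to 0.975). These are the highest values among many genes, all taken over the same 12 libraries, which vary in depth and mt-Nd6 level, and are given as a description.

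**Figure D4:**
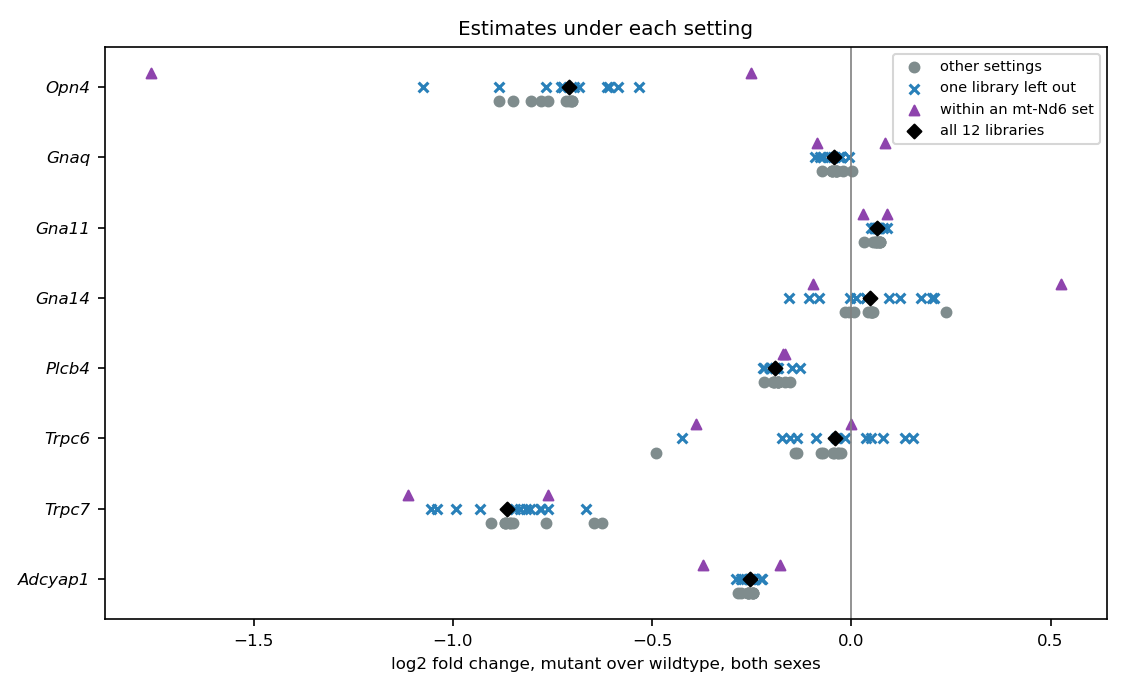
Log2 fold change of mutant over wildtype for 8 members under each setting of the both-sex comparison, with the estimate from all 12 libraries as a black diamond. Crosses leave out 1 library, triangles are fits within mt-Nd6-rich or mt-Nd6-poor libraries, and grey points are other settings. All points of Opn4, Trpc7, Plcb4 and Adcyap1 lie below 0, those of Gna11 above it, and those of Gnaq, Gna14 and Trpc6 on both sides.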

How the data were processed

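RNA was measured in 12 pooled retina libraries. Per the submitters' processing notes, reads were called with CASAVA, aligned to mm10 with STAR 2.5, counted with HTSeq 0.6.1 and compared with DESeq2; the sources used here do not give the annotation release or the strand setting. The authors deposited raw counts per gene, FPKM (count over listed gene length and library total), and their own log2 fold changes, p-values and adjusted p-values, mutant over wildtype. Counts were tested with edgeR 4.0.16 in R 4.3.3 (TMM, filterByExpr over the groups compared, two-sided quasi-likelihood test, Benjamini-Hochberg over all genes, threshold 0.05), with sex as a term over both sexes. CPM used library totals without TMM. Standard errors restate the F statistic. DESeq2 1.42.0 and limma 3.58.1 served as alternatives. The edgeR test of each comparison was checked on simulated counts, and the 2 alternatives were not.

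The 9 members were chosen by name, and the lists of related genes and markers were chosen by function, with earlier results of these data known. Named genes are the members, up to 3 genes per related list with the smallest p, the genes of a family where its place is described (2 family genes are not reported here and enter no family sum), and the 3 genes most alike to a member. Replicate numbers did not pair the male pools (correlations of deviations of -0.314, 0.0311 and 0.439 for numbers 4, 5 and 6), while the female pools gave 0.296, 0.345 and 0.210. Pools of unlike number gave -0.525 to 0.568 in males and -0.504 to 0.275 in females. Pairing by number was therefore not settled in females. The alternatives were another scaling, filter or test, the replicate block, the mt-Nd6 sets, libraries without those highest in Cryaa, and each library left out. Promoter sequences are from RefSeq on GRCm38.p6. The deposited tables of males and of females gave only the authors' fold changes and p-values, which entered no test.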

Additional observations from a re-analysis of the deposited data

Results flagged for a closer look

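Among 18 sets of 6 libraries (9 genes in each genotype), 2 held a library far from the other 5, where chance flags about 5% of sets. Gnaq in wildtype male 6, at 201 CPM, was well below the other 5 wildtype libraries. Plcb4 in mutant male 6, at 23.4 CPM, was well below the other 5 mutant libraries, and without it the log2 difference of Plcb4 was -0.13 (edgeR unadjusted p = 0.0573).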

How the results depend on the processing

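Members called stayed at 0 in all 4 comparisons under every alternative that could be fitted. Opn4, Plcb4, Trpc7 and Adcyap1 stayed below 0 and Gna11 above 0 in all 24 alternatives. Opn4 ran from -1.76 to -0.25, with an unadjusted p under 0.05 in 8 of the 24. Gnaq turned to 0.0856 among mt-Nd6-rich libraries and 0.00272 without the 3 libraries highest in Cryaa. Gna14 turned to -0.0151 with limma voom, -0.00531 with the replicate block and -0.10 among mt-Nd6-poor libraries, and was highest, 0.53, among mt-Nd6-rich ones. With 1 library left out Gna14 ran from -0.16 to 0.21 and Trpc6 from -0.43 to 0.16. Over both sexes the count of all genes called, 4, was 2 with a stricter filter, 15 with DESeq2, 1 with the replicate block, 9 with a term for the mt-Nd6 set, 0 without the libraries highest in Cryaa, and 1 to 5 with 1 library left out. In males it was 0, and 6 with DESeq2. In females it was 1, and 10 with DESeq2, 2 with the replicate block, 62 among mt-Nd6-rich and 61 among mt-Nd6-poor libraries (3 each, the lone one of its genotype assumed to vary like the others), 0 without the libraries highest in Cryaa, and 0 to 2 with 1 library left out. In the interaction it was 0, and 2 among mt-Nd6-rich libraries. The cause was not tested. Rasgrp1 was fitted only where the filter kept it, from -0.85 among mt-Nd6-rich to 0.92 among mt-Nd6-poor libraries. Males among mt-Nd6-rich libraries were too few to fit. Low counts, at most 68 per library, limit Opn4, Gna14, Trpc6, Trpc7 and Rasgrp1.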

Other observations

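Among the mutants, mutant male 6 was the highest in Opn4, Gna11, Gna14, Trpc7 and Rasgrp1 and the lowest in Gnaq, Plcb4 and Trpc6, and its Rasgrp1 rested on 10 counts.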
